A study of Mus musculus with 135 samples.

Results

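The splicing factor genes described here are the 56 genes, of 15181 in the deposited table of read counts, whose symbols start with *Srsf*, *Hnrnp*, *Sf3a*, *Sf3b*, *U2af* or *Prpf*, leaving out symbols marked as pseudogenes and entries that join several genes under one name. The rule used symbols and no measured value, though it was set with earlier results of these data known. By family they comprised 11 SR genes, 20 hnRNP genes, 3 SF3a, 6 SF3b, 3 U2AF and 13 PRPF genes. All 56 had at least 1 counted read, 54 were expressed in at least 10% of the cells used, and 36 in at least 50%.

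Introns are removed from messenger RNA precursors by the spliceosome, a machine of small nuclear RNAs and proteins that is assembled anew on each intron. SR proteins bind exons and promote the use of nearby splice sites, hnRNP proteins coat the transcript and often oppose them, U2AF recognises the end of the intron, the SF3a and SF3b complexes hold the U2 particle on the branch point, and PRPF proteins belong largely to the later U4/U6.U5 particle and the catalytic core. In haematopoietic stem cells (HSCs), the rare bone marrow cells that renew all blood lineages, these genes are of interest because *SF3B1*, *SRSF2* and *U2AF1* are among the genes most often mutated in human myelodysplastic syndromes and in the clonal haematopoiesis of older people.

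The study asked how ageing alters HSCs, and sequenced single cells sorted from bone marrow by their surface markers (7AAD-, Lin-, Sca-1+, c-Kit+, CD150+ and CD48-). The young cells came from 1 C57BL/6 mouse of 2 to 3 months and the old cells from 1 C57BL/6 mouse of 20 to 25 months. Both mice carried the *Vwf-eGFP* transgene, in which von Willebrand factor regulatory sequence drives a green reporter, and neither age was sorted on the reporter for these libraries as far as the labels say. Of the 61 young and 74 old cells in the table, 52 and 62 passed the limits of the study and were used.

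Between 273236 and 5688706 reads were counted per young cell used (median 2798990) and between 276316 and 4086659 per old cell (median 2116024). Counts were scaled to CPM, which is reads of a gene per 1e6 reads counted in that cell. Levels below are means of log2(CPM + 1) over the cells of one age, and a difference is old minus young on that log2 scale. Expressing cells were those in which log2(CPM + 1) exceeded 2. Cells of 1 mouse are not replicates, so no test was made, no p-value is given, and age, mouse and capture run cannot be told apart. Sex-linked genes separated the mice as well: *Xist* was detected in 96.2% of young against 12.9% of old cells, and the Y-linked *Ddx3y* in 0 of 52 against 61.3%. Intervals of shares (95%, Clopper-Pearson) and of summed reads (95%, exact Poisson) cover counting error only, since the reads carry no molecular identifiers.

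Each of the 8 HSC markers checked had reads, with *Meis1* in every cell and *Kit* in 94.2% of the young and 98.4% of the old. *Hlf* was expressed in 94.2% and 88.7%, *Mecom* in 82.7% and 64.5%, and *Ly6a* in 53.8% and 69.4%, while *Procr* (21.2% and 38.7%) and *Slamf1*, which encodes the sorted CD150 (17.3% and 24.2%), were expressed in a minority. For markers of other cell types the summed CPM per cell is given as the median and the highest, young before old, the lowest cell being at 0 or below 0.4 CPM in every list. It was 0.281 (1108) and 0 (797) for the 1 B cell gene of 5 found in the table, 2.27 (391) and 1.70 (35.6) for 3 of 4 T cell genes, and 0 (38.9) and 0 (163) for 3 of 6 macrophage genes. For 3 of 9 erythroid genes it was 0 (1459) and 0 (15.3), with *Hba-a1* at 0 in all cells used, for all 6 platelet genes 1.07 (1116) and 28.2 (2891), and for 5 of 6 neutrophil genes 57.3 (796) and 186 (1013). Of the last, *Prtn3* was expressed in 73.1% and 95.2% of cells and *Elane* and *Mpo* in at most 2 cells of either age. The part of these genes in the differences below was not tested.

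The splicing factor genes had a lower median level in the old cells than in the young when each was averaged over cells on the log scale, and 11 of the 21 members that were lower by at least 0.5 were hnRNP genes. The median difference of the 56 members was -0.27, where that of all 15014 genes with a count was -0.02. Of the 56 members, 37 lay below 0 and 19 above (66.1% below, against 53.8% of all genes). Among genes that at least 10% of cells expressed, the median was -0.29 for 54 members and -0.07 for all. Among those in at least 50% of cells it was -0.32 for 36 members and -0.11 for all, with 72.2% and 58.3% below 0. A difference of at least 0.5 towards lower levels in old cells was seen in 21 members, or 37.5%, beside 15.2% of all genes and 22.1% of the 9374 genes that at least 10% of cells expressed. The opposite was seen in 6 members, or 10.7%, beside 11.6% and 17.2%. At the 2-fold limit, a difference of at least 1, 9 members (16.1%) were lower in old cells, beside 4.49% of all genes and 6.98% of those 9374, and 4 members (7.14%) were higher, beside 3.91% and 6.24%. The 4 became 2 when every cell of the table was used. On the log2 ratio of summed counts the median was -0.23 (all genes -0.03) and 36 members lay below 0, but the share lower by at least 0.5 was 26.8% beside 29.3% of all genes, and by at least 1 it was 8.93% beside 18.9%, so the excess of members past these limits held for the mean of log levels and not for the sums. The SD between cells of one age had a median over 54 members of 2.81 in young and 2.95 in old cells, and differences near 0.5 are small beside it.

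**Figure D1:**
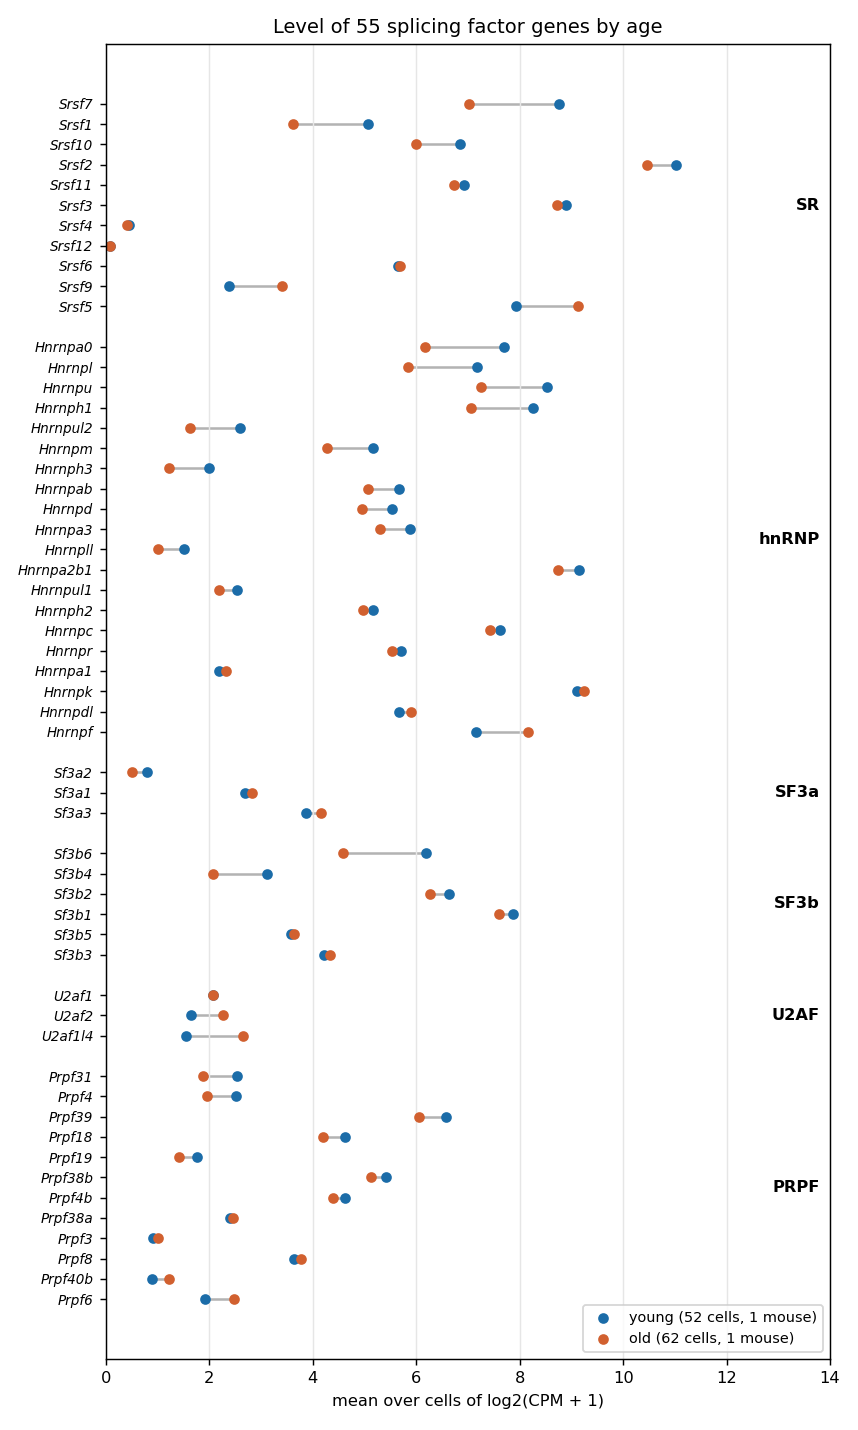
Mean over cells of log2(CPM + 1) (horizontal axis) for 55 of the 56 splicing factor genes (rows, by family, ordered by the difference), in 52 young cells (blue) and 62 old cells (orange), each age 1 mouse. Most hnRNP genes have the orange point to the left, with a median difference of -0.55 over 20 genes, while Srsf5, Srsf9, Hnrnpf and U2af1l4 have it to the right by 1.01 to 1.21.

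The families differed in their medians. The 20 hnRNP genes had a median difference of -0.55, with 16 below 0, 11 lower by at least 0.5 and 1, *Hnrnpf*, higher by that much. The 11 SR genes had a median of -0.17, with 4 lower and 2 higher by at least 0.5, and those 2 and 2 of the 4 were past 1. The 6 SF3b genes had a median of -0.31 with 2 lower and none higher, and the 13 PRPF genes one of -0.28 with 4 lower and 1 higher. The 3 SF3a genes stayed within 0.5 of 0, with a median of 0.13, and the 3 U2AF genes had a median of 0.63, with 2 higher. With 3 genes, such a median is the value of 1 gene. By the ratio of summed reads the hnRNP median was -0.38 with 17 of 20 below 0, the SF3b median -0.22 and the SR median -0.05. The SF3a and PRPF medians turned, to -0.38 with all 3 genes below 0 and to 0.06, and that of U2AF was 0.02. In the cells without mitotic entry genes described further on, the hnRNP median was -0.17, with 6 lower and 4 higher by at least 0.5, and the others were -0.002 (SR), -0.03 (SF3b), -0.26 (PRPF), 0.59 (SF3a) and 1.13 (U2AF).

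In the share of a cell's counted reads, all members together took a median of 1.70% in young cells (lowest 0.899%, highest 2.32%) and 1.38% in old cells (lowest 0.835%, highest 2.06%). The ranges overlapped over most of their length. The SR genes took a median of 0.611% and 0.484%, and the hnRNP genes 0.653% and 0.592%. *Srsf2* alone held 16.5% of the summed member reads in young and 12.3% in old cells. Without it the medians were 1.36% and 1.19%. A young cell expressed a median of 37 members (23 to 47) and an old cell 34 (23 to 47), of 4116 and 3902 genes expressed in all. With every cell thinned to 250000 reads the medians were 38 and 35. On a scale of CPM per kilobase of transcript, which allows genes to be compared with each other, *Srsf2* ranked first of the 56 in both ages, at 1725 in young and 1112 in old cells. The next in young cells were *Srsf7* (529), *Hnrnpa2b1* (476), *Hnrnpk* (397) and *Srsf3* (376), and in old cells *Srsf5* (557), *Hnrnpk* (466), *Hnrnpf* (417) and *Hnrnpa2b1* (393). *Srsf5* thus stood at rank 6 in young and rank 2 in old cells, and *Srsf7* at rank 2 and rank 7.

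Among the SR genes, *Srsf7* was lower in old cells by 1.74, which placed it at rank 87 from the bottom among those 9374 genes. SRSF7 is a zinc-knuckle SR protein that acts in splicing, 3′ end choice and RNA export. Its level ran from 0 to 12 with a median of 9.46 in young cells, and from 0 to 11.37 with a median of 8.39 in old cells. The ranges overlapped, and the old cells included a larger group near 0. It was expressed in 50 of 52 young cells (96.2%, 86.8 to 99.5%) and 51 of 62 old cells (82.3%, 70.5 to 90.8%). Among expressing cells alone the difference was -0.69, and the log2 ratio of summed reads, each taken over the total of its age, was -0.80.

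*Srsf1*, the founding SR protein gene and a regulator of many exon choices, was lower by 1.47. Its median was 5.14 in young cells (0 to 11.20) and 1.83 in old cells (0 to 11.33). Of the young cells 43 expressed it (82.7%, 69.7 to 91.8%), and of the old cells 30 (48.4%, 35.5 to 61.4%). At this limit it was the 1 member of 56 whose intervals did not overlap between the ages, lower in old cells as were those of 0.733% of all genes with a count. Intervals apart in the other direction were seen for 0 members and 0.899% of all genes. The shares of *Srsf1* depended on the limit. With 1 counted read sufficing they were 88.5% (76.6 to 95.6%) and 77.4% (65 to 87.1%). Above a limit of 4 they were 61.5% (47 to 74.7%) and 37.1% (25.2 to 50.3%). In both cases the intervals overlapped. At the limit of 2 the intervals stayed apart after thinning to 250000 reads (78.8% and 51.6%). They did so too with every cell of the table (73.8% and 44.6%). The old cells that did express *Srsf1* had more of it, by 0.73 on the log2 scale, and the ratio of summed reads was 0.15 (26090 reads in young cells, 25774 to 26409, and 24936 in old cells, 24627 to 25247, at a lower total). Of the old reads 32.2% came from 1 cell, and without the highest cell of each age the ratio was 0.04. The mean of log levels of *Srsf1* was thus lower in old cells where its summed reads were not.

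*Srsf5* stood at the other end, higher in old cells by 1.21. *Srsf5* encodes an SR protein. Its median was 8.66 in young cells (1.02 to 10.53) and 9.61 in old cells (3.16 to 11.34), with nearly all cells of both ages expressing it (51 of 52 and 62 of 62), so that its difference lay in the level per cell. The ratio of summed reads was 0.92. *Srsf9*, another SR gene, was higher by 1.03 and was expressed in 23 young cells (44.2%, 30.5 to 58.7%) and 37 old cells (59.7%, 46.5 to 71.9%), with medians of 1.14 (0 to 8.24) and 4.31 (0 to 8.71). *Srsf2*, whose product binds exonic enhancers and which is mutated in myelodysplastic syndromes, was expressed in every cell and was lower by 0.57, with medians of 11.29 (3.03 to 12.94) and 10.48 (6.17 to 12.10). *Srsf3*, the smallest SR protein and one that couples splicing to RNA export, differed by -0.17, with medians of 9.80 (0.54 to 11.86) and 9.56 (1.09 to 11.22). *Srsf10*, *Srsf11* and *Srsf6* differed by -0.85, -0.18 and 0.04, and *Srsf4* and *Srsf12* were expressed in under 10% of cells and are not read further.

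**Figure D2:**
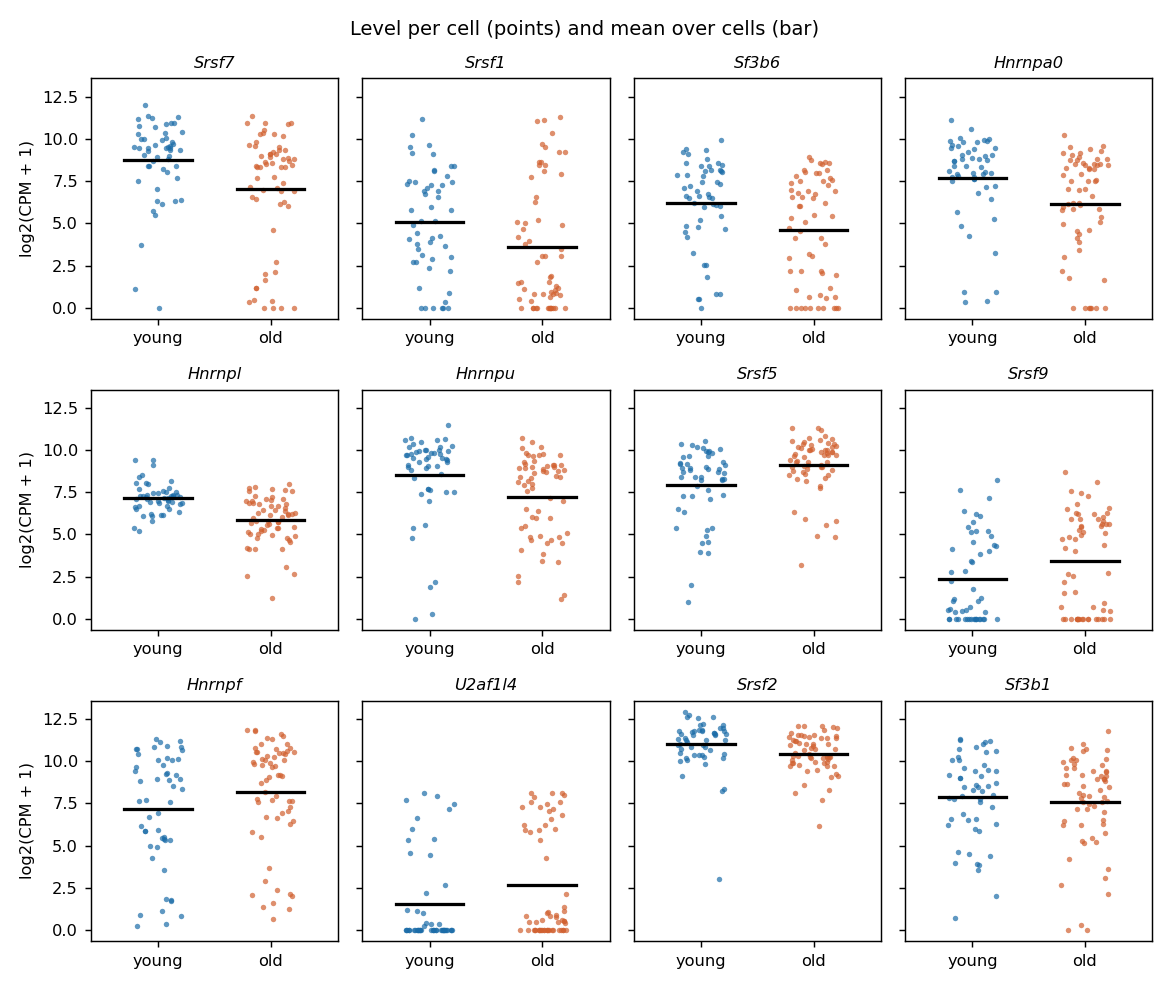
Level per cell as log2(CPM + 1) (vertical axis) for 12 splicing factor genes in young (blue, 52 cells) and old cells (orange, 62 cells); each point is 1 cell and the bar is the mean over cells. Srsf7, Srsf1 and Sf3b6 show more old cells near 0, whereas Hnrnpl and Srsf5 are shifted along their range with nearly all cells expressing them.

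The promoters of the 4 SR genes with a difference of at least 1 are shown because these genes moved apart within one family. They are the 300 bases from 250 before to 50 after the annotated start (RefSeq, GRCm38.p6, written in the direction of transcription), and capitals mark any match to 6 short motifs searched on both strands. *Srsf5* lies on the + strand (chr12:80945249-80945548), *Srsf9* on the + strand (chr5:115326927-115327226), *Srsf7* on the - strand (chr17:80207256-80207555) and *Srsf1* on the + strand (chr11:88047123-88047422).
Srsf5: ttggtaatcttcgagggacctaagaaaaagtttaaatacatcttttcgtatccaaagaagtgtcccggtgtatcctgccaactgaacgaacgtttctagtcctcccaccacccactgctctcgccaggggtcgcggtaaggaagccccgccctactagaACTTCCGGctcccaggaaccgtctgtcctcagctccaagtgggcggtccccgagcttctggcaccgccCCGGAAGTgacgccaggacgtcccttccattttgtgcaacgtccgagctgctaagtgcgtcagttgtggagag
Srsf9: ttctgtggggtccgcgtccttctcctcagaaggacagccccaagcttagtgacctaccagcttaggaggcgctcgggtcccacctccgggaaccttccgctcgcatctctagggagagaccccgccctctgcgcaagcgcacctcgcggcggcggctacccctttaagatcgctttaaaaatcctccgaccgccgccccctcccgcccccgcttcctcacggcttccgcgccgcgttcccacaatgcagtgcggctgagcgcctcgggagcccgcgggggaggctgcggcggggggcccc
Srsf7: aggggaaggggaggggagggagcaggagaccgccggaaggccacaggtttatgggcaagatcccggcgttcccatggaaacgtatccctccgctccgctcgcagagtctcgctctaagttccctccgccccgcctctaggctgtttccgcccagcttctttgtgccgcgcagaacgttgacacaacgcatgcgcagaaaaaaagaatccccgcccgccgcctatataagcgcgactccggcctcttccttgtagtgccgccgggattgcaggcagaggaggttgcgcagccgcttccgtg
Srsf1: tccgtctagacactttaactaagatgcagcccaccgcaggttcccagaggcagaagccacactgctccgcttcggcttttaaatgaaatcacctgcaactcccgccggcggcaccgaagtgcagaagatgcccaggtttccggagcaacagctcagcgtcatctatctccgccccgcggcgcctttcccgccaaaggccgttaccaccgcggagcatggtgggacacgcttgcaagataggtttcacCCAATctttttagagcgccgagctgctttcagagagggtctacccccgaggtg

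The *Srsf5* promoter held the ETS motif CCGGAAGT at position 228 and its reverse complement at position 160, counted from the first base shown, and that of *Srsf1* held a CCAAT box at position 248. Those of *Srsf9* and *Srsf7* held none of the 6 motifs. Of the 56 members 49 had at least 1 promoter in the RefSeq table, 66 promoters in all, beside 14134 promoters of 11229 genes of the count table. The ETS motif CCGGAAGT was found in 18.2% of the member promoters and 7.07% of all promoters. By gene it was found for 10 of 49 members (20.4%), beside 909 of 11229 genes (8.1%). It was found for *Srsf5*, *Hnrnpf* and *Prpf6* of the 5 members with a promoter that were higher in old cells by at least 0.5. Of the 17 that were lower it was found for *Hnrnpd*. *Hnrnpf* has several promoters in the table, of which 1 held the motif. The other shares, members first, were 51.5% and 37.5% for the CCAAT box (CCAAT), 7.58% and 7.91% for the TATA box (TATAAA), 13.6% and 9.46% for the E-box (CACGTG), and 25.8% and 19.5% for the SP1 box (GGGGCGGGG). The cAMP response element (TGACGTCA) was in 0 of 66 and 2.84%. By gene, of the 5 members higher and the 17 lower, the CCAAT box was found for 1 and 9. For the SP1 box these were 1 and 7, for the E-box 1 and 4, and for the TATA box 0 and 3. For the cAMP response element they were 0 and 0. These groups are small, and no link between a motif and a difference was tested. Median GC content was 61.7% for members and 60% for all genes. A match is a description of letters and not a site of binding.

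The hnRNP genes had 4 members lower by at least 1, namely *Hnrnpa0*, *Hnrnpl*, *Hnrnpu* and *Hnrnph1*. *Hnrnpl* (chr7:28808541-28822266, + strand, GRCm38), whose product binds CA-rich RNA and regulates exon inclusion, is the clearest of them in the plot of levels per cell. Its levels ran from 5.23 to 9.40 with a median of 7.20 in young cells and from 1.24 to 8.0 with a median of 5.99 in old cells. The SD between cells was 0.87 in young and 1.37 in old cells, where the median member had 2.81 and 2.95, beside a difference of -1.35. All 52 young and 61 of 62 old cells expressed it, the ratio of summed reads was -1.29 (27936 reads, 27609 to 28266, against 9900, 9706 to 10097), and leaving out any one cell kept the difference between -1.39 and -1.27. The ranges of the ages still overlapped.

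*Hnrnpa0*, encoding an A/B-type hnRNP that binds AU-rich messages, was lower by 1.53, with medians of 8.36 (0.35 to 11.14) and 7.03 (0 to 10.23). It was expressed in 92.3% and 85.5% of cells, and the difference among expressing cells was -1.14. *Hnrnpu*, also known as SAF-A and a protein of nuclear RNA and chromatin scaffolds, was lower by 1.27, with medians of 9.47 (0 to 11.47) and 8.27 (1.19 to 10.70). It was expressed in slightly more old cells (96.8%) than young cells (94.2%), so that its difference too lay in the level per cell, at -1.55 among expressing cells. *Hnrnph1*, whose product binds G-runs, was lower by 1.20. *Hnrnpf*, a close relative of *Hnrnph1* that binds like sequences, differed in the other direction by 1.01, with medians of 8.05 (0.26 to 11.31) and 9.18 (0.62 to 11.87) and 84.6% and 93.5% of cells expressing it. In both *Hnrnph1* and *Hnrnpf* the ranges of the ages overlapped almost fully.

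*Hnrnpk*, *Hnrnpa2b1* and *Hnrnpa1* differed by less than 0.5. *Hnrnpk*, encoding a poly(C)-binding protein, had medians of 9.62 (2.2 to 12.03) and 9.88 (1.30 to 11.91) and a difference of 0.14. *Hnrnpa2b1*, encoding an A/B-type hnRNP of splicing and RNA transport, had medians of 9.52 (5.04 to 11.05) and 9.33 (1.06 to 10.93) and a difference of -0.41. *Hnrnpa1*, encoding the classical antagonist of SRSF1, was counted at a low level, with medians of 1.5 (0 to 7.43) and 2.07 (0 to 6.51), 48.1% and 50% of cells expressing it, and a difference of 0.13. Many processed copies of *Hnrnpa1* exist in the mouse genome and the authors kept 1 alignment per read, so its count is uncertain. Whether strand was used in counting is not given, and exons of *Hnrnpk*, *Hnrnpab* and *Hnrnpm* overlap those of *Rmi1*, *Phykpl* and *March2*, so reads of these pairs may be shared. *Hnrnpul2*, *Hnrnpm*, *Hnrnph3*, *Hnrnpab*, *Hnrnpd*, *Hnrnpa3* and *Hnrnpll* made up the rest of the 11 hnRNP genes lower by at least 0.5, at -0.99 to -0.51.

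**Figure D3:**
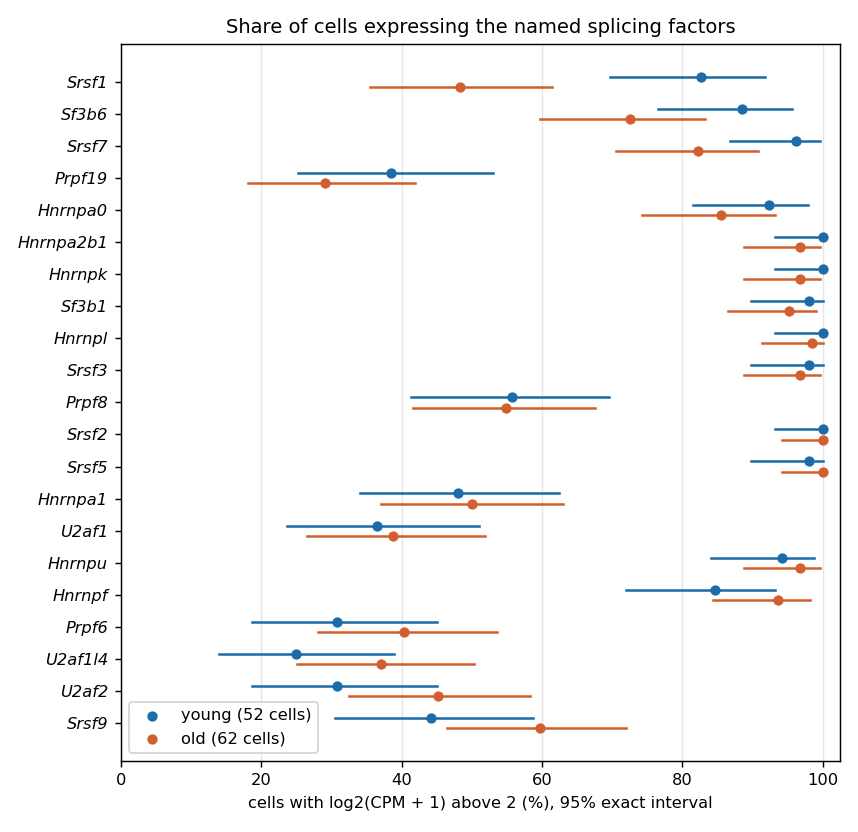
Share of cells with log2(CPM + 1) above 2 (horizontal axis, %) for the 21 named splicing factors in young (blue, 52 cells) and old cells (orange, 62 cells), with 95% exact intervals for counting error as bars. Srsf1 at the top is the member whose bars do not overlap at this limit (82.7% and 48.4%), and Srsf9 at the bottom has the largest gap the other way (44.2% and 59.7%).

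Of the branch point complexes, the SF3b gene *Sf3b6* was lower in old cells by 1.61. SF3B6, or p14, is the SF3b subunit that contacts the branch adenosine. In young cells its median was 6.69 (0 to 9.95) and 88.5% of cells expressed it (76.6 to 95.6%). In old cells the median was 5.37 (0 to 8.94) and the share 72.6% (59.8 to 83.1%). The ranges and the intervals overlapped. *Sf3b4*, encoding another RNA-contacting subunit, was lower by 1.05 and expressed in 46.2% and 32.3% of cells. *Sf3b1*, the largest subunit and the one mutated in myelodysplastic syndromes, differed by -0.26, with medians of 8.37 (0.70 to 11.32) and 8.23 (0 to 11.80) and a ratio of summed reads of 0.01. *Sf3b2*, *Sf3b3* and *Sf3b5* differed by -0.36, 0.11 and 0.05, and *Sf3a1*, *Sf3a2* and *Sf3a3* by 0.13, -0.29 and 0.29. Exons of *Sf3b3* overlap those of *Cog4*, and exons of *Sf3a2* those of *Plekhj1*.

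The U2AF genes were expressed in a minority of cells of both ages. *U2af1*, encoding the small subunit that reads the AG at the intron's end, had medians of 0.85 (0 to 8.47) and 0.54 (0 to 8.14), 36.5% and 38.7% of cells expressing it, and a difference of -0.01. *U2af1l4*, a related gene also called U2af26, was higher in old cells by 1.11, with 25.0% (14 to 38.9%) and 37.1% (25.2 to 50.3%) of cells expressing it and medians of 0 (0 to 8.12) and 0.69 (0 to 8.15). *U2af2*, encoding the large subunit that binds the polypyrimidine tract, was higher by 0.63, with medians of 0.42 (0 to 7.82) and 0.88 (0 to 7.80), while the ratio of its summed reads was 0.02, or 0.42 without the highest cells. Most cells of both ages lay near 0 for all 3 genes.

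Among the PRPF genes, *Prpf31*, *Prpf4* and *Prpf39* were lower by 0.67, 0.55 and 0.51. The ratios of summed reads of *Prpf31* and *Prpf4* were 0.10 and 0.62, on the other side of 0, and exons of *Prpf39* overlap those of *Fkbp3*. *Prpf6*, encoding a bridging protein of the tri-snRNP, was higher by 0.55, with medians of 0.30 (0 to 7.70) and 1.23 (0 to 10.49), and 58.2% of its old reads came from 1 cell. The ratio of its summed reads was 1.86, and 0.98 without the highest cell of each age. *Prpf8*, encoding the protein at the heart of the catalytic centre, differed by 0.14, with medians of 2.85 (0 to 10.07) and 3.33 (0 to 10.29). *Prpf19*, the ubiquitin ligase that gives the Prp19 complex its name, differed by -0.35, with medians of 0.98 (0 to 8.11) and 0.23 (0 to 7.81).

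The lists of cell cycle genes were lower in old cells by more than the splicing factors were. The median difference was -1.06 for 42 S phase genes and -1.02 for 52 G2/M genes. *Cdk1*, the kinase that drives entry into mitosis, was detected in 40.4% of the young and 11.3% of the old. The 25 young and 49 old cells that expressed none of *Ccna2*, *Ccnb1*, *Cdk1* and *Cdc25c* were therefore compared on their own. This choice did not match the ages for all cell cycle genes. The S phase genes still had a median difference of -0.27 there, with 13 lower and 5 higher by at least 0.5. That of the G2/M genes was -0.17, with 4 lower and 5 higher. The mean level of both lists had a median of 1.88 in these young and 1.57 in these old cells. The highest cells stood at 3.92 and 5.26. In these cells the median difference of the 56 members was -0.07, beside 0.02 for all genes. By at least 0.5, 13 of the 56 members were lower, beside 2032 of the 15014 genes with a count (13.5%). Higher by that much were 17 of the 56, beside 2800 of the 15014 (18.6%). Of the 9374 genes that at least 10% of cells expressed, 1765 were lower and 2581 higher by that much. At the limit of 1, 7 of the 56 members were lower and 9 higher, beside 621 and 1122 of the 15014 (4.14% and 7.47%). Of the 9374 genes, 589 and 1109 were. In each of these comparisons the members had the larger share.

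The members behaved unequally in this comparison. Of the 9 members lower by at least 1 in all cells, 6 were so in the cells without mitotic entry genes as well, and these were *Srsf7* (-1.93), *Srsf1* (-1.49), *Hnrnpa0* (-1.40), *Hnrnpl* (-1.37), *Sf3b6* (-1.22) and *Hnrnpu* (-1.04). *Hnrnph1* stood at -0.78 and *Sf3b4* at 0.01. The 6 members higher by at least 0.5 in all cells were all so here too, with *Srsf9* at 1.67, *Hnrnpf* at 1.36, *Prpf6* at 1.35, *U2af2* at 1.21, *Srsf5* at 1.03 and *U2af1l4* at 0.88. Others that were near 0 in all cells stood higher, among them *Hnrnpk* at 1.18, *U2af1* at 1.13 and *Prpf8* at 0.92. With 25 young cells these values rest on fewer cells, and the part of the cell cycle in any difference was not tested further.

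**Figure D4:**
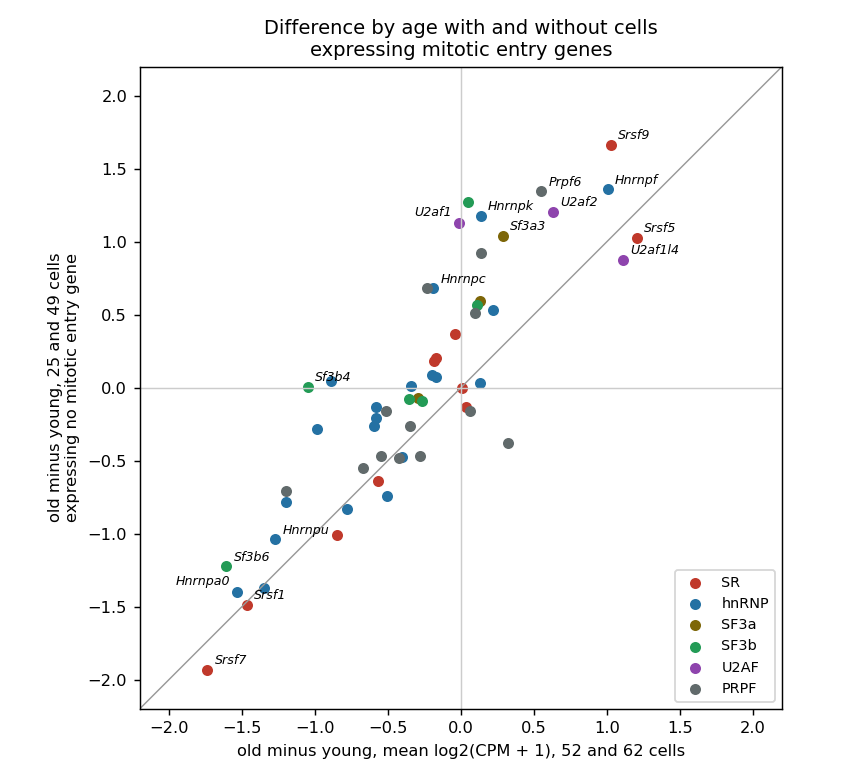
Difference old minus young in mean log2(CPM + 1) of each of the 56 members in all cells used (horizontal axis, 52 young and 62 old) and in cells expressing no mitotic entry gene (vertical axis, 25 and 49), coloured by family, with the line of equality. Srsf7, Srsf1 and Hnrnpa0 lie near the line at the lower left, and most members with small differences lie above it.

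Across cells of one age, cells with more cell cycle message also had a higher mean level of the 56 members. Pearson's r between the mean level of the members and that of the 94 S and G2/M genes was 0.67 over 52 young cells and 0.60 over 62 old cells. Both measures also followed the number of genes expressed per cell, with r of 0.72 and 0.64 for the members and 0.70 and 0.64 for the cell cycle genes. The r between the 2 measures was not adjusted for that number, and what underlies it was not tested. In the cells without mitotic entry genes r was 0.37 over 25 young and 0.58 over 49 old cells. For single members in at least 50% of cells, r with the cell cycle level had a median of 0.17 in young (-0.14 to 0.49) and 0.19 in old cells (-0.03 to 0.33).

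**Figure D5:**
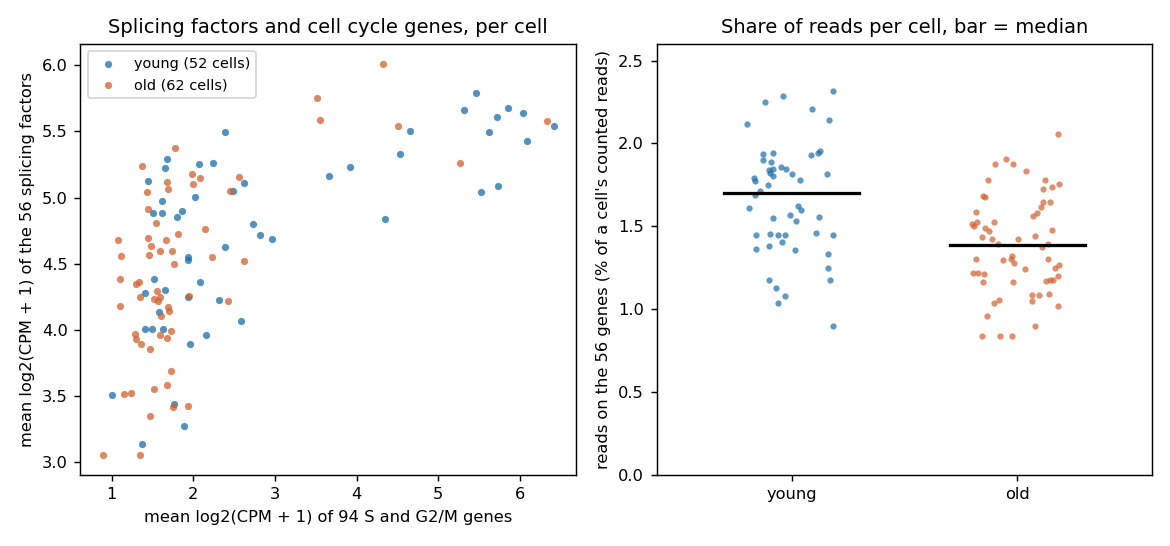
Left, mean log2(CPM + 1) of the 56 splicing factors (vertical axis) against that of 94 S and G2/M genes (horizontal axis), 1 point per cell, young blue and old orange. Right, reads on the 56 genes as a percentage of each cell's counted reads, with the median as a bar (1.70% in young and 1.38% in old cells); the cells with the highest cell cycle level all lie high on the left plot, and the ages overlap on the right.

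Pairs of members had a median r from cell to cell close to that of all gene pairs. Over the 630 pairs of the 36 members in at least 50% of cells, the median r was 0.05 in young and 0.04 in old cells, beside 0.03 in both ages for all pairs of the 2971 genes expressed that widely. Pairs with r above 0.3 made up 4.44% and 2.54%, beside 4.57% and 4.21% for all genes. The highest pair in young cells, *Hnrnpab* with *Sf3b3* at 0.45, stood at -0.03 in old cells, and the next, *Srsf5* with *Hnrnpdl* (0.44) and with *Srsf2* (0.43), stood at 0.02 and -0.04. The highest in old cells, *Hnrnpk* with *Prpf18* at 0.39, stood at 0.13 in young cells. In counts this sparse such values are no finding.

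The spread between cells, as the coefficient of variation of CPM, was below that of genes of like mean for 33 of 54 members in young and 34 in old cells. *Hnrnpl* had the lowest spread against like genes, 0.77 in both ages where genes of like mean had 1.86 and 2.59. *Hnrnpa1* (2.12 and 1.65, against 3.53 and 3.67) and *Hnrnpul1* (2.02 and 1.66, against 3.41 and 3.63) followed. At the other end *Sf3a2* had 2.50 and 3.34 against 2.03 and 1.69, *Sf3b3* 2.28 and 2.25 against 1.59 and 1.76, and *Hnrnpll* 3.36 and 5.47 against 2.94 and 3.51.

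Other genes of the pathway were described by lists, 101 genes in all, and their median difference was -0.19. Of them 30 were lower and 11 higher by at least 0.5 (29.7% and 10.9%, beside 15.2% and 11.6% of all genes). By at least 1, 11 were lower and 2 higher (10.9% and 1.98%, beside 4.49% and 3.91% of all genes). Among the 9374 genes that at least 10% of cells expressed, the shares were 22.1% and 17.2% at 0.5 and 6.98% and 6.24% at 1. By summed reads the median of the 101 genes was -0.02, with 53 below 0 and 48 above. The Sm core kept its direction by summed reads (median -0.50). So did the SR kinases (-0.08), the other splicing regulators (-0.10) and the splicing genes mutated in myelodysplastic syndromes (-0.14). The medians turned for the U1, U2 and branch point genes (0.11), the U5 and tri-snRNP genes (0.05) and the Prp19 and catalytic genes (0.13). They turned too for the SR-like and exon junction genes (-0.15) and the minor spliceosome (0.09). The values by mean level follow. All 7 genes of the Sm core, the protein ring of the spliceosomal RNAs, lay below 0, with a median of -0.30 and the largest differences in *Snrpd3* (-1.31), *Snrpd2* (-1.28) and *Snrpe* (-0.88). The other U1, U2 and branch point genes (16) had a median of -0.33, from *Rbm17* at -0.97 to *Smndc1* at 1.02. Those of U5 and the tri-snRNP (11) had a median of -0.01 and those of the Prp19 complex and the catalytic steps (16) one of -0.18, where the second-step factor *Slu7* stood at 1.41 and *Cdc40* at -1.27.

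Of the 6 kinases that phosphorylate SR proteins, *Clk4* was lower by 1.66 and *Srpk2* and *Clk1* were higher by 0.75 and 0.53, with a median of -0.17 over the list. The 13 SR-like and exon junction complex genes had a median of 0.11. The 25 other splicing regulators had a median of -0.29 with 10 lower and 1 higher by at least 0.5, and the largest differences were in *Tial1* (-1.98), which binds U-rich introns, *Mbnl2* (-1.57), of the muscleblind family, *Rbm10* (-1.30) and *Khdrbs1* (-1.22). The 7 genes of the minor spliceosome had a median of -0.26, with *Snrnp25* at -1.40. Of the 6 splicing genes mutated in myelodysplastic syndromes, 5 lay below 0 with a median of -0.24, and the 2 past 0.5 were *Zrsr2* (-0.75) and *Srsf2*. In cells without mitotic entry genes the median of the 101 genes was 0.06. Of these 101 genes 24 were lower and 27 higher by at least 0.5, beside 2032 and 2800 of 15014 genes (13.5% and 18.6%). Among the 9374 genes that at least 10% of cells expressed, 1765 were lower and 2581 higher by that much in the same cells. There *Tial1* stood at -0.49, *Snrpd3* at -0.08, *Rbm10* at -0.61, *Zrsr2* at 0.13 and *Clk1* at 0.03, while *Clk4* (-2.56), *Mbnl2* (-1.80), *Khdrbs1* (-1.73), *Snrnp25* (-1.82), *Cdc40* (-1.20), *Snrpd2* (-0.93) and *Slu7* (1.78) kept their direction past 0.5.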

How the data were processed

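Reads of 51 bp were mapped by the authors to mm10 with TopHat2 2.0.10, keeping 1 alignment per read, and counted on RefSeq genes with rpkmforgenes. The deposited values are whole-number read counts per gene and cell, without normalization. Capture sites were imaged by the authors to check for single cells, and no doublet caller was run here. Here counts were divided by the cell's total to give CPM, and the level as the mean of log2(CPM + 1), with a pseudocount of 1. The cells used are those the study lists as passing its limits. Depth per cell is given with the groups above, and no cell of those used had under 250000 reads.

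The members follow from their symbols. They, the other lists, the motifs and the rule for named genes were chosen with earlier results of these data known. Members named are the 6 largest differences in each direction among those expressed in at least 10% of cells, plus 12 set by role; others named (*Hnrnph1*, *Sf3b4* and those completing a count) were chosen after their values were seen. Of other lists at most 4 genes are named. With 1 mouse per age no test was possible; "past" a limit means a difference of at least 0.5 or 1. Positions and the median length of coding transcripts came from GENCODE M21 (GRCm38), which matched all 56 members and 14436 of 15181 entries by symbol. The tools were R 4.3.3 with edgeR 4.0.16 and DESeq2 1.42.0 (scaling factors of alternatives only) and Python 3.11.15 with scipy 1.17.1, numpy 2.4.6 and pandas 2.3.3. The steps were run on simulated counts, with levels shuffled over cells of both ages and 200 genes changed by known folds. Of unchanged genes in at least 10% of cells, 28.6% still passed 0.5 in either direction and 5.46% passed 1. Of genes changed 2-fold, 45.5% passed 0.5 in the right direction and 79.5% had the right sign. Single differences near these limits are thus uncertain. Protein sequences were not analysed here, and 1 member enters the counts and medians but is not reported here by itself.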

Additional observations from a re-analysis of the deposited data

How the results depend on the processing

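Each value was recomputed with every cell of the table, the 58 young and 70 old cells of a second, looser set of limits, cells of at least 1000000 reads, cells without mitotic entry genes, a pseudocount of 0.1 CPM, values below 1 CPM set to 0, ratios of summed counts, TMMwsp and poscounts factors, and thinning to 250000 reads. The median difference of the members stayed below 0 throughout, from -0.33 (pseudocount 0.1) to -0.07 (cells without mitotic entry genes), and from -0.32 to -0.19 when each cell was left out in turn, an alternative chosen after seeing the data.

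Of 273 values for the 21 named members over 13 alternatives, 258 moved by less than 1.5-fold, small values that crossed 0 included, 13 moved by more, and 2 values of a member past 0.5 turned direction. Both of the last were *Srsf1*, at 0.15 by summed counts and 0.035 without the highest cells. In all 16 values lay on the other side of 0, and the other 14 came from 6 members whose difference was below 0.5 (*Sf3b1*, *U2af1*, *Prpf8*, *Srsf3*, *Hnrnpa1* and *Prpf19*). Members higher by at least 1 numbered 2 with every cell of the table, with the second limits and with cells of at least 1000000 reads, against 4. In cells without mitotic entry genes 13 of the 56 members were lower by at least 0.5, beside 2032 of 15014 genes (13.5%). There 17 of the 56 were higher by that much, beside 2800 of 15014 (18.6%). Higher by at least 1 were 9 of the 56, beside 1122 of 15014 (7.47%). The same numbers of members in all cells used were 21, 6 and 4. By summed counts, with or without the highest cells, 10 were higher by at least 0.5 and 5 lower by at least 1. By summed counts these were 17.9% and 8.93% of the members, beside 28% and 18.9% of all genes. Members expressed per cell numbered 44 (young) and 42 (old) when 1 read sufficed and 32 and 29 above a limit of 4. The share of reads in young cells without *Srsf2* was 1.36%, and the young r with the cell cycle level was 0.37 in cells without mitotic entry genes. The causes were not tested. No paired analysis was possible because the cells of the 2 mice share no pairing and no result comes from a test.

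Thinning to 250000 reads moved none of the 21 named members' differences by 1.5-fold. With 1 mouse per age the spread between animals is unknown, and age cannot be told apart from mouse, sex-linked genes or capture run.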

Other observations

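In the 9 young and 12 old cells that did not pass the limits, the 56 members took a median of 1.55% (0.531 to 2.42%) and 1.32% (0.525 to 1.96%) of counted reads. The lowest values of both ages and the highest young value lay outside the ranges of the cells used, and the highest old value lay inside.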
